A study of Mus musculus with 24 samples.

Results

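Astrocyte transcripts for handling glutamate, potassium and water were followed in mice with brain calcification. The genes were the 8 members *Slc1a2*, *Slc1a3*, *Glul*, *Kcnj10*, *Gja1*, *Gjb6*, *Aqp4* and *Slc6a11*, found by symbol among the 32288 genes counted in each of 24 single-nucleus RNA libraries. Each library came from 1 of 2 dissected regions of 12 mice. The deep brain (pallidum, thalamus and hypothalamus, midbrain and pons) is the region where vessels calcify in the mutant, and the cortex, taken with the hippocampus, is free of calcification. The 6 mutants were *Pdgfb* ret/ret and the 6 controls *Pdgfb* ret/wt, all of the strain B6.Pdgfbtm3Cbet, so the controls also carried a ret allele, which was present in the germ line and not in a single cell type. In both genotypes the ages ran from 5 months to 18 days above that in mice 1 to 3. Mice 4 to 6 were younger, at 4 months with 7 to 24 days added. All mice were female except control mouse 6.

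Astrocytes clear the transmitters that neurons release. The glutamate transporters encoded by *Slc1a2* and *Slc1a3* carry glutamate into the astrocyte, where glutamine synthetase, encoded by *Glul*, turns it into glutamine, and the transporter encoded by *Slc6a11* takes up GABA. Potassium released by firing neurons enters through the inward rectifier channel of *Kcnj10* and spreads from cell to cell through gap junctions built of the connexins of *Gja1* and *Gjb6*, while the water channel of *Aqp4* sits in the endfeet that wrap blood vessels.

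Unique molecular identifiers (UMIs), which count captured RNA molecules, totalled 23625232 to 95605387 in a cortical library and 64736053 to 96459036 in a deep brain library. Of the deposited barcodes the quality limits kept 124958 of 127519 in deep brain libraries and 79967 of 109705 in cortical libraries. The cortical libraries were uneven, and 7 of the 12 had a median below 1500 UMIs per kept nucleus. The 5 deeper cortical libraries were those of controls 2, 5 and 6 and of mutants 5 and 6, and results that rest on the cortex are also given with these alone. In the cortex 38968 of the nuclei fell into a cluster led by mitochondrial transcripts and were left unnamed. At most 2.37% of the barcodes of a library were shared with another library.

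Nuclei were clustered without the 8 genes, and clusters were named from separate marker lists. Astrocyte-like nuclei, called astrocytes here, numbered 10221 in the deep brain (578 to 1174 per library) and 1571 in the cortex (25 to 453 per library). All 10 astrocyte markers, among them *Aldh1l1*, *Sox9* and *Fgfr3*, passed the naming limit in both regions. The name was given from these markers, so this is no separate check of it. The deep brain astrocytes formed 2 clusters. In 1 of them, of 2463 nuclei, all 4 markers of telencephalic astrocytes (among them *Lhx2*, *Mfge8* and *Emx2*) were raised, and in the other, of 7758 nuclei, 4 of the 5 markers of non-telencephalic astrocytes were. They are called telencephalic-type and non-telencephalic astrocytes below. A level is given in CPM, the UMIs of a gene per 1000000 UMIs summed over the nuclei of a class in a library. Reads were counted from introns as well as exons, so that long genes gather more counts, and levels are compared only within a gene.

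All 8 genes were higher in astrocytes than in neurons, and several were also present in other classes. Neurons, which should lack most of these transcripts, are given for comparison, and free RNA was not measured. *Gja1* averaged 8.3 ± 1.3 CPM (SD, n = 12 libraries) in deep brain neurons and 891 ± 121 CPM in deep brain astrocytes. The corresponding values of *Aqp4* were 4.3 ± 1.0 and 525 ± 95.9 CPM. *Gjb6* was at 3.3 ± 0.43 and 356 ± 78.4 CPM in the same classes. These contrasts between clusters are descriptions and were not tested, because the clusters were made from the same nuclei.

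Other classes shared some of the machinery. Oligodendrocytes of the deep brain held *Glul* at 654 ± 92.3 CPM, against 915 ± 180 CPM in astrocytes and 47.5 ± 6.9 CPM in neurons. They also held *Kcnj10* at 163 ± 15.5 CPM, and their precursor cells (OPC) held it at 99.0 ± 15.6 CPM. In controls *Kcnj10* averaged 286 ± 40.9 CPM in deep brain astrocytes and 174 ± 36.7 CPM in cortical ones (n = 6). In the telencephalic type of the deep brain it averaged 159 ± 29.0 CPM, near the oligodendrocyte level. The precursor cells carried *Slc1a2* at 665 ± 40.8 CPM, above the 222 ± 77.2 CPM of deep brain neurons. Fibroblast-like nuclei held *Gjb6* at 522 ± 91.3 CPM and *Gja1* at 279 ± 85.1 CPM, with *Aqp4* at 16.8 ± 11.8 CPM and *Kcnj10* at 11.2 ± 4.5 CPM. The channels for water and potassium were thus far below their astrocyte levels in the class with the 2 connexins. The same class held *Slc1a3* at 605 ± 167 CPM and *Glul* at 669 ± 111 CPM. Endothelial-like nuclei held *Glul* at 657 ± 167 CPM, and microglia held *Slc1a3* at 205 ± 37.7 CPM. A cluster with markers of both ependymal cells and astrocytes, 568 nuclei left unnamed, held *Aqp4* at 790 ± 211 CPM. The finer division given below set apart 379 nuclei led by the ependymal markers *Cfap299*, *Dnah12* and *Tmem212*, with *Aqp4* at only 188 ± 54.5 CPM. It also set apart 251 nuclei led by *Myoc*, with *Aqp4* at 2417 ± 736 CPM.

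**Figure D1:**
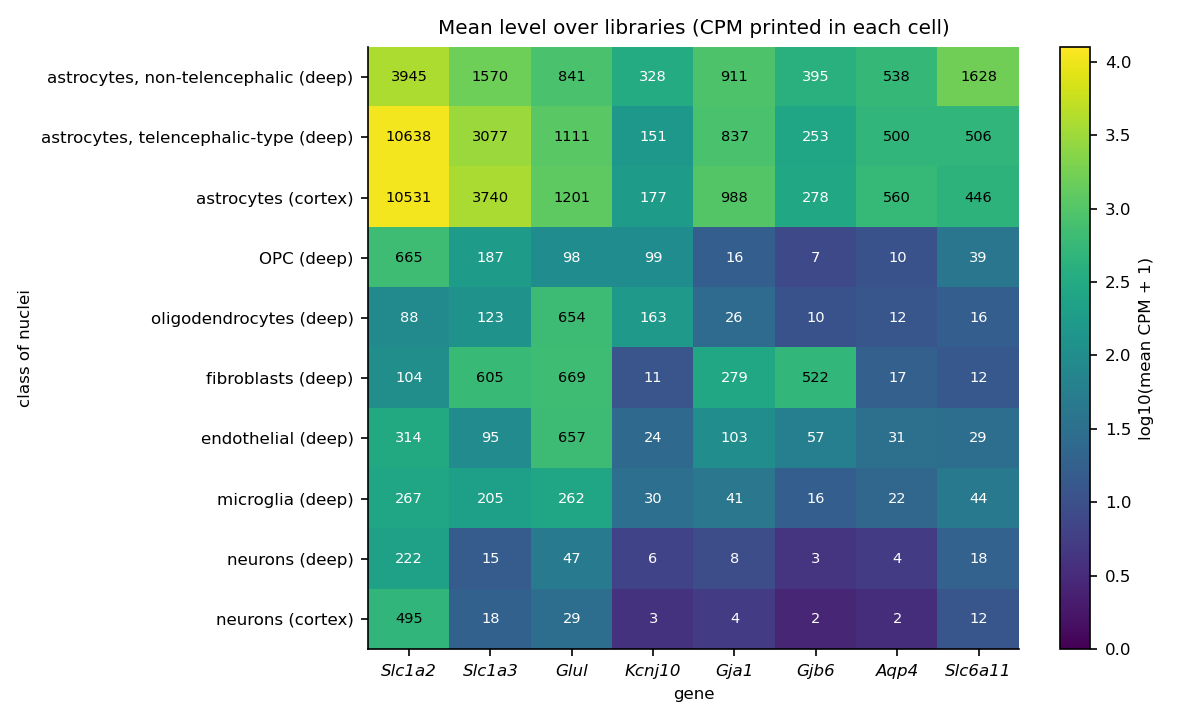
Mean level of each of the 8 genes (columns) in each class of nuclei and region (rows), as CPM averaged over libraries and printed in each cell, with the colour giving log10(mean CPM + 1). For all 8 genes the 3 astrocyte rows lie above the neuron rows. Oligodendrocytes also hold *Glul* and *Kcnj10*, the latter near its level in telencephalic-type and cortical astrocytes. Fibroblast-like nuclei hold *Gjb6* above all 3 astrocyte rows, and also *Gja1*, *Slc1a3* and *Glul*.

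Neurons varied in *Slc1a2* by cluster. A cortical cluster of 3337 neurons led by *Hs3st4* and *Rai14* held 1386 ± 98.1 CPM over 12 libraries. The largest neuron cluster of the cortical libraries, 12188 neurons led by *Pdzrn3* and *Tafa1*, held 499 ± 36.6 CPM. In the same libraries 7560 neurons led by *Rarb* and *Rgs9* held 180 ± 46.8 CPM. A deep brain cluster of 8345 neurons shared *Rarb*, *Rgs9* and *Drd2* with them among its leading genes. Whether the cortical samples also held tissue from outside the cortex and hippocampus was not tested. In the deep brain 5706 nuclei led by *Synpo2* and *Lef1*, counted among the neurons but with too few markers to be named when all nuclei were clustered at 1 resolution, held 433 ± 31.4 CPM, and the 35231 neurons led by 6330411D24Rik and *Baiap3* held 88.2 ± 14.5 CPM. *Slc1a3* was at 6.4 ± 2.3 CPM in the *Hs3st4* cluster, while a deep brain cluster of 1872 nuclei counted among the neurons but led by mitochondrial transcripts held 2842 ± 990 CPM of *Slc1a2* and 430 ± 129 CPM of *Slc1a3*. That cluster is part of the neuron values given above, and the part of free astrocyte RNA in it was not tested.

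Shares of nuclei were counted after thinning each nucleus to 500 UMIs, since depth differed. These shares and depths pool the nuclei of all libraries of a region, so they carry no spread between mice. Of the 1571 cortical astrocytes, control 5 gave 453, mutant 5 gave 376 and mutant 6 gave 292. A UMI of *Slc1a2* was found in 85.3% of thinned deep brain astrocytes and 96.8% of cortical ones, and before thinning in 99.7% of both. For *Slc6a11* the thinned shares were 46.1% and 21.4%. They were 12.8% and 8.53% for *Kcnj10*, 57.4% and 76.3% for *Slc1a3*, and 21.6% in both regions for *Aqp4*. In thinned deep brain neurons the shares were 0.43% for *Aqp4*, 0.77% for *Gja1* and 1.23% for *Slc6a11*. Median depths before thinning were 3242 UMIs in deep brain astrocytes, 3988 in cortical astrocytes and 9617 in deep brain neurons.

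The first comparison asked whether astrocytes of the calcification-prone deep brain and of the cortex of the same control mice differed in these genes. In controls 3 of the 8 genes were lower and 3 higher in the deep brain by edgeR's quasi-likelihood test, with the mouse as a block and adjustment over all genes. Of the 12274 genes tested, 13% passed in either direction, 6.89% of them lower and 6.09% higher in the deep brain. Both glutamate transporters and glutamine synthetase were lower there, and the GABA transporter, the potassium channel and *Gjb6* were higher.

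*Slc1a2*, the main glutamate transporter of forebrain astrocytes, lies on chromosome 2 from 102658659 to 102790784 on the plus strand (GRCm38, ENSMUSG00000005089). In control astrocytes its lowest, median and highest levels were 5141, 6453 and 8264 CPM in the deep brain and 10064, 11123 and 12336 CPM in the cortex. The groups did not overlap, and all 6 mice had the lower level in the deep brain. The fitted log2 difference, deep brain minus cortex, was -0.77 ± 0.09 (SE, adjusted p = 3.2e-08).

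*Slc1a3*, the second astrocytic glutamate transporter, lies on the minus strand of chromosome 15 from 8634124 to 8710764 (ENSMUSG00000005360). Its levels in controls were 1302, 1881 and 2305 CPM in the deep brain against 2783, 3852 and 4428 CPM in the cortex. Again no mouse had the higher level in the deep brain, and the difference was -0.997 ± 0.10 (adjusted p = 2.8e-09).

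*Glul*, on chromosome 1 from 153899944 to 153909723 on the plus strand (ENSMUSG00000026473), was at 622, 1001 and 1153 CPM in the deep brain of controls and at 968, 1213 and 1692 CPM in the cortex. The ranges overlapped, but within each mouse the deep brain was lower, and the log2 difference was -0.41 ± 0.09 (adjusted p = 0.0018). This call was the least steady of the 6. It was lost when the members were kept among the clustering genes (-0.12, adjusted p = 0.54), when all nuclei were clustered at 1 resolution (-0.13, adjusted p = 0.67), and when astrocyte nuclei with neuron or oligodendrocyte UMIs were removed (-0.20, adjusted p = 0.60). Leaving out the mouse block lost it too, as given at the end.

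*Slc6a11*, the GABA transporter, lies on the plus strand of chromosome 6 from 114131241 to 114249952 (ENSMUSG00000030307) and showed the largest difference of the 8. Levels in controls were 949, 1257 and 1548 CPM in the deep brain and 353, 432 and 556 CPM in the cortex. The lowest deep brain library lay above the highest cortical library, and the log2 difference was 1.47 ± 0.09 (adjusted p = 1.1e-13).

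*Kcnj10*, the potassium channel, on the plus strand of chromosome 1 from 172341210 to 172374085 (ENSMUSG00000044708), moved the same way. Its levels were 216, 288 and 326 CPM in the deep brain and 109, 185 and 207 CPM in the cortex of controls. The groups did not overlap, and the difference was 0.70 ± 0.11 (adjusted p = 9.3e-06).

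Of the 2 connexins, only *Gjb6* passed. It lies on the minus strand of chromosome 14 from 57123303 to 57133611 (ENSMUSG00000040055) and was at 287, 409 and 478 CPM in the deep brain of controls against 190, 284 and 340 CPM in the cortex. The ranges overlapped while all 6 mice had more in the deep brain, and the difference was 0.49 ± 0.09 (adjusted p = 0.00013). *Gja1*, on the plus strand of chromosome 10 from 56377330 to 56402513 (ENSMUSG00000050953), was at 731, 964 and 998 CPM in the deep brain and 819, 1097 and 1321 CPM in the cortex. Its difference of -0.23 ± 0.11 did not pass (adjusted p = 0.18), and without control 4 it did (-0.34, adjusted p = 0.035).

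*Aqp4*, the water channel, on the minus strand of chromosome 18 from 15389496 to 15410982 (ENSMUSG00000024411), had 431, 472 and 537 CPM in the deep brain of controls and 377, 488 and 591 CPM in the cortex. The difference of -0.01 ± 0.11 did not pass (adjusted p = 0.99), and its 95% interval ran from -0.24 to 0.22.

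**Figure D2:**
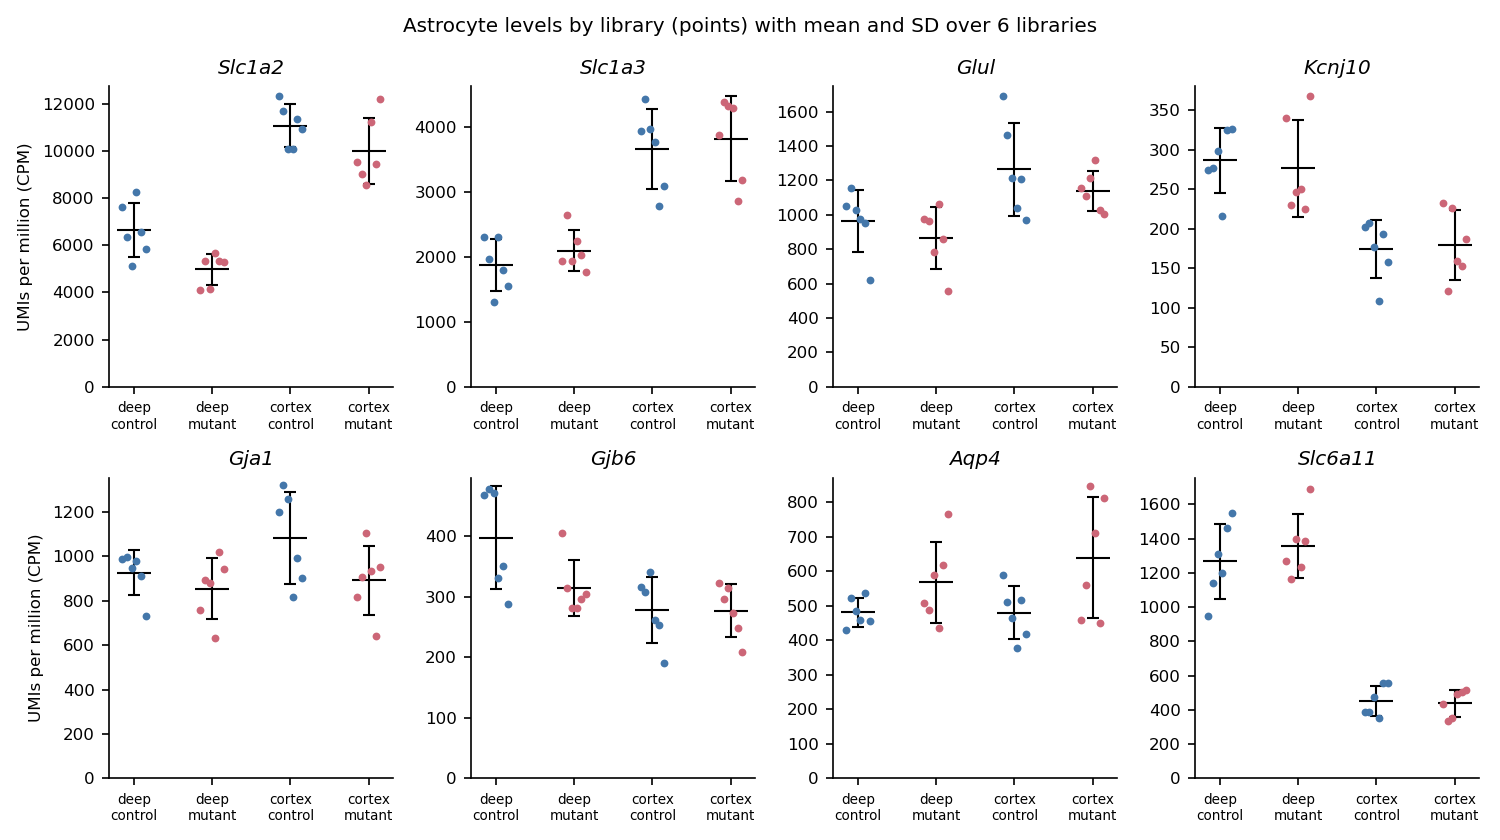
Level of each of the 8 genes in astrocytes (CPM of all UMIs of the astrocytes of a library, axes from 0) in the 4 groups of region and genotype. Each point is 1 library, the black dash is the mean and the bar is the SD over 6 libraries. The deep brain libraries lie below the cortical ones for *Slc1a2* and *Slc1a3* and above them for *Slc6a11*, whereas those of *Aqp4* and *Gja1* overlap.

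The mutants gave 2 genes higher and 3 lower in the deep brain, in a fit in which 14.8% of the 12274 genes passed (8.29% lower and 6.5% higher). The log2 differences were -1.04 ± 0.09 for *Slc1a2* (adjusted p = 4.5e-11), -0.89 ± 0.10 for *Slc1a3* (adjusted p = 1.2e-08) and -0.45 ± 0.09 for *Glul* (adjusted p = 0.00057). *Slc6a11* was higher by 1.58 ± 0.09 (adjusted p = 8.1e-15) and *Kcnj10* by 0.62 ± 0.10 (adjusted p = 3.3e-05). In all 6 mutants these 5 genes went the same way. The call of *Glul* in mutants was lost when all nuclei were clustered at a resolution of 0.1, as given at the end. *Gjb6*, at 0.17 ± 0.09, did not pass (adjusted p = 0.24), although 5 of 6 mutants had more in the deep brain. *Gja1* (-0.09 ± 0.11) and *Aqp4* (-0.18 ± 0.11) did not pass either.

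Whether the region difference itself depended on genotype was tested as an interaction. By edgeR none of the 8 genes passed, nor did any of the 12274 genes, 0% in all. At an unadjusted p under 0.05 there were 773 genes, and DESeq2 called 1 gene higher and 11 lower, no member among them. With no filter on low counts 15 genes were higher and 33 lower. When 1 mouse was left out, with the libraries of both its regions, the count ranged from 0 to 16, the most without mutant 4. Of the members the lowest p were those of *Gjb6* (interaction of -0.32 ± 0.13, adjusted p = 0.66) and *Slc1a2* (-0.27 ± 0.12, adjusted p = 0.75).

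The 5 genes called in both genotypes were also called with the deeper cortical libraries alone and their deep brain partners. In controls the differences were then -0.91 for *Slc1a2*, -0.98 for *Slc1a3*, -0.49 for *Glul*, 0.69 for *Kcnj10* and 1.42 for *Slc6a11*, with *Gjb6* at 0.51 (adjusted p = 0.0024). Summed oligodendrocyte markers in the same astrocyte sums were 587 to 851 CPM in the deep brain and 395 to 643 CPM in the cortex of controls, and summed neuron markers 323 to 524 and 507 to 823 CPM. Summed precursor cell markers did not overlap, at 126 to 256 CPM in the deep brain and 82 to 116 CPM in the cortex. The part of other cells' RNA in the region differences was not tested beyond the removal of nuclei with 2 or more UMIs of neuron or oligodendrocyte markers, which left 18 libraries with enough nuclei. In that fit *Slc1a2* (-0.75), *Slc1a3* (-0.79), *Kcnj10* (0.63) and *Slc6a11* (1.54) passed in controls, while *Gjb6* (0.41, adjusted p = 0.17) did not.

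**Figure D3:**
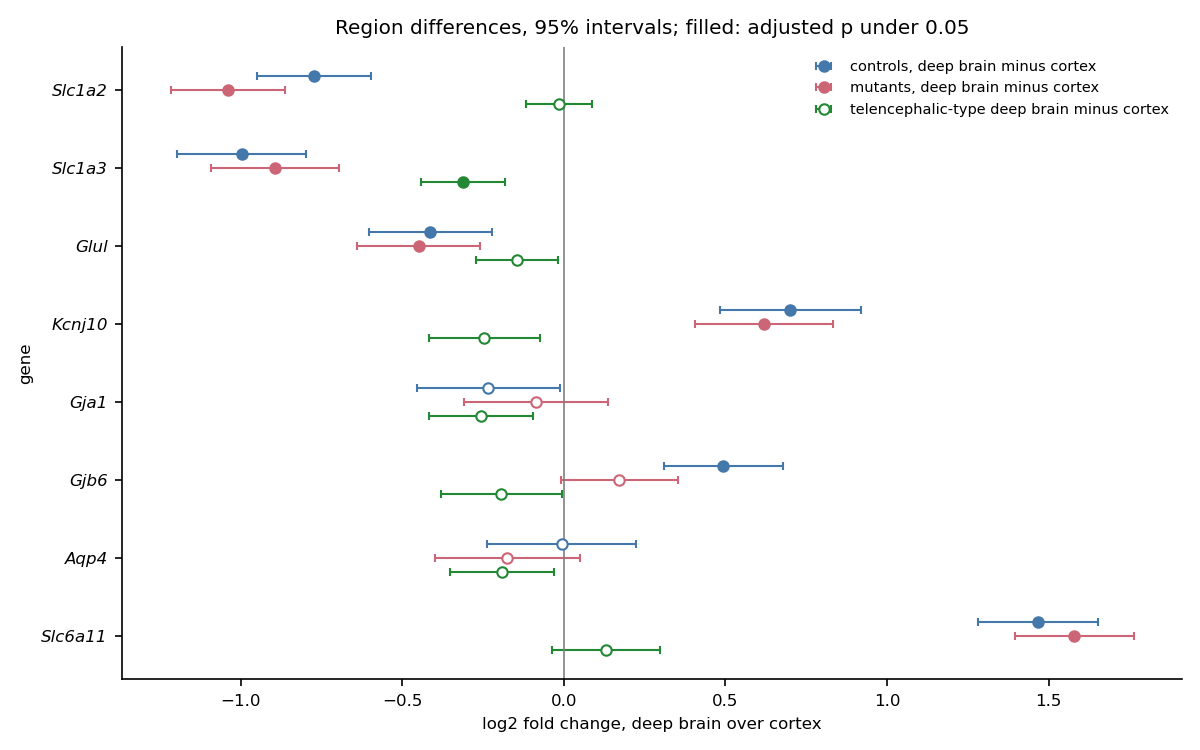
Fitted log2 difference between deep brain and cortical astrocytes for each of the 8 genes in controls and in mutants, and between telencephalic-type deep brain astrocytes and cortical astrocytes. The last was fitted over both genotypes together. Bars are 95% intervals, filled points passed an adjusted p of 0.05, and values above 0 mean a higher level in the deep brain. The differences of controls and mutants lie on the same side of 0 in every gene called in both, and those of telencephalic-type astrocytes lie between -0.31 and 0.13.

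Inside the deep brain the 2 astrocyte clusters differed in the same genes. These values describe clusters of the same nuclei, so no test was made. *Slc1a2* averaged 10638 ± 973 CPM in telencephalic-type astrocytes and 3945 ± 564 CPM in non-telencephalic ones (SD, n = 12 libraries). *Slc1a3* averaged 3077 ± 506 and 1570 ± 247 CPM, and *Glul* 1111 ± 181 and 841 ± 169 CPM. All 3 were higher in the telencephalic type in 12 of 12 libraries, with mean log2 ratios of 1.44 ± 0.13, 0.97 ± 0.13 and 0.41 ± 0.18. *Slc6a11* went the other way, at 506 ± 96.0 CPM in the telencephalic type and 1628 ± 216 CPM in the non-telencephalic type. *Kcnj10* was at 151 ± 26.3 and 328 ± 50.3 CPM, and *Gjb6* at 253 ± 83.1 and 395 ± 81.2 CPM. In none of the 12 libraries were these 3 higher in the telencephalic type. *Gja1* (838 ± 129 and 911 ± 123 CPM) and *Aqp4* (500 ± 131 and 538 ± 91.6 CPM) were the closest, with mean log2 ratios of -0.13 ± 0.13 and -0.13 ± 0.27.

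A finer division of the deep brain cluster that held the astrocytes, at a resolution of 0.3, set apart nuclei with more *Aqp4*. A group of 251 nuclei led by *Myoc*, *Mybpc1* and *Gfap*, the intermediate filament of astrocytes, held *Aqp4* at 2417 ± 736 CPM (SD over 11 libraries), with a range from 1165 to 3618 CPM. Of its nuclei 65 were among the named astrocytes. Its *Slc6a11* was at 506 ± 126 CPM and its *Slc1a2* at 6045 ± 2188 CPM. Most non-telencephalic nuclei fell into a group of 3955 led by *Cyp26b1* and a group of 3781 led by *Vit*. *Slc1a3* was at 1227 ± 178 CPM in the first and 2138 ± 232 CPM in the second, without overlap over 12 libraries. Their *Aqp4* levels, 573 ± 123 and 566 ± 106 CPM, overlapped. These groups were chosen for description after their values were seen and were not tested.

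**Figure D4:**
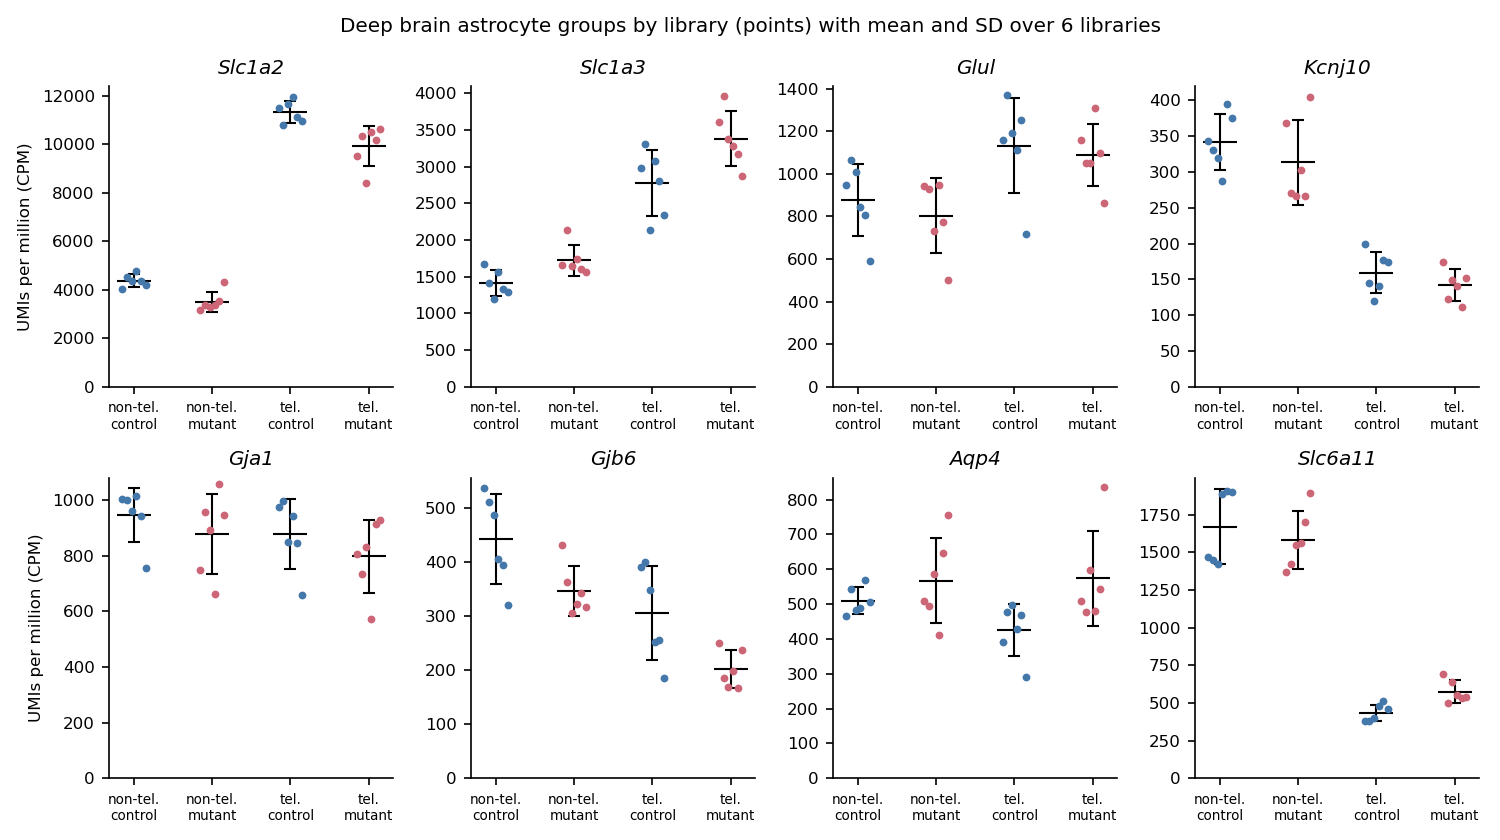
Level of each of the 8 genes (CPM, axes from 0) in non-telencephalic (non-tel.) and telencephalic-type (tel.) astrocytes of the deep brain, by genotype. Each point is 1 library, the black dash is the mean and the bar is the SD over 6 libraries. For *Slc1a2*, *Kcnj10* and *Slc6a11* the points of the 2 clusters do not overlap, whereas those of *Gja1* and *Aqp4* do.

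Telencephalic-type astrocytes of the deep brain were therefore set against cortical astrocytes of the same mice, a comparison that the clustering within the deep brain did not use. A single region difference was fitted here over mice of both genotypes. Of the 8 genes *Slc1a3* passed, lower in the deep brain with a log2 difference of -0.31 ± 0.06 (adjusted p = 0.0018), where 4.12% of the 8815 genes tested passed (1.06% higher and 3.06% lower). *Slc1a2* differed by -0.02 ± 0.05 (95% interval -0.12 to 0.09) and *Slc6a11* by 0.13 ± 0.08 (95% interval -0.04 to 0.30). *Kcnj10*, at -0.25 ± 0.08, did not pass (adjusted p = 0.11) and had the sign opposite to that of all deep brain astrocytes in controls and in mutants. The *Slc1a3* call was lost with the deeper cortical libraries alone (-0.19, adjusted p = 0.63) and without the mouse block (-0.31, adjusted p = 0.092). *Gja1*, at -0.26 ± 0.08 (adjusted p = 0.060), passed without control 4 (-0.29, adjusted p = 0.023) or mutant 5 (-0.33, adjusted p = 0.0030), and *Kcnj10* without control 4 (-0.29, adjusted p = 0.042).

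The annotated start of transcription is shown for a gene lower in the deep brain and for the pair of transporter and channel genes higher there. Each sequence is the 250 bases before the RefSeq start (GRCm38.p6), on the strand of the gene, with matches of the motifs searched in capitals. They are chr15:8710808-8711057 (minus strand), chr1:172340960-172341209 (plus) and chr6:114130991-114131240 (plus).
*Slc1a3*: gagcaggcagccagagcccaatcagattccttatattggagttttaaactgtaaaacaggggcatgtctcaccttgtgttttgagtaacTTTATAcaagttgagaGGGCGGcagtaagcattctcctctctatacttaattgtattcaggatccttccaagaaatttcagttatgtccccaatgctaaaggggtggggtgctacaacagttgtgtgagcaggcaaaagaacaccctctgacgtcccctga
*Kcnj10*: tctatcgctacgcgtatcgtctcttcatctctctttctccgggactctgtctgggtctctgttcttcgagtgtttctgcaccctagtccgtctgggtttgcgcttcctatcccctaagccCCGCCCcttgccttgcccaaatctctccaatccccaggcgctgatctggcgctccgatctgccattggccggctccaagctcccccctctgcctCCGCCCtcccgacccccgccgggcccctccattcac
*Slc6a11*: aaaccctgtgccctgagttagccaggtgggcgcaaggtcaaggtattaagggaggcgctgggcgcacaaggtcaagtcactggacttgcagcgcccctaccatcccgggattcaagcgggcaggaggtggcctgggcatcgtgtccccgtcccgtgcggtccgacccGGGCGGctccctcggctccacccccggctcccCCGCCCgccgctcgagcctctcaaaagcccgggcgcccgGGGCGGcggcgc

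The motifs searched on both strands were the GC box GGGCGG, the TATA box TATAAA, the NFI motif TTGGCA and the SOX core ACAAAG, and no matches overlapped in the windows shown. Among 32851 RefSeq windows of the same length the shares with a match were 32.7%, 12.4%, 12.3% and 16.5%. *Slc6a11* held 3 GC boxes, *Kcnj10* 2 and *Slc1a3* 1 together with 1 TATA box. The window of *Glul* held 1 GC box, and those of *Gja1* and *Gjb6* held no match. The window of *Slc1a2*, taken at a RefSeq start inside the gene, held no match either. The GC content was 71.2% for *Slc6a11*, 62% for *Kcnj10* and 44.8% for *Slc1a3*, against a median of 52.4% over all windows. It was 64.8% for *Glul*, which was lower in the deep brain, 56.8% for *Gjb6*, 50% for *Gja1* and 44.8% for *Slc1a2*. These matches describe letters only, and whether a factor binds there was not measured.

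Mutants were next set against controls. In deep brain astrocytes none of the 8 genes passed, in a fit in which 5.16% of the 12671 genes did (3.18% higher and 1.98% lower in mutants). These were 654 genes, and there were 391 without mutant 3 and 1065 without mutant 6. *Slc1a2* came closest. Its lowest, median and highest levels were 4093, 5292 and 5691 CPM in mutants and 5141, 6453 and 8264 CPM in controls. All 6 mutants lay below the control median, 2 of them below the lowest control, and the ranges overlapped. The share of these astrocytes in the telencephalic-type cluster, where *Slc1a2* was higher, was 9.22 to 46.9% in controls and 13.4 to 27.4% in mutants. Its means were 29.6 ± 14.3% and 18.9 ± 6.0% (SD, n = 6), a difference that did not pass (p = 0.13, two-sided exact permutation test). Its part in the pooled *Slc1a2* difference was not tested, and each cluster is given alone below. The log2 difference of *Slc1a2* was -0.43 ± 0.13 (adjusted p = 0.069 by edgeR), and it passed with DESeq2 (adjusted p = 0.023), with no filter on low counts (adjusted p = 0.047) and without control 3 (-0.49, adjusted p = 0.036).

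*Gjb6* was at 282, 300 and 405 CPM in mutants and 287, 409 and 478 CPM in controls. All 6 mutants lay below the control median, but controls 4 to 6, at 287 to 350 CPM, lay in the range of the mutants. The difference of -0.35 ± 0.13 did not pass (adjusted p = 0.145). Without control 6, the only male, it did (-0.44, adjusted p = 0.049). *Aqp4* was at 435, 548 and 767 CPM in mutants and 431, 472 and 537 CPM in controls, with 3 mutants above the highest control, and its difference of 0.23 ± 0.12 did not pass (adjusted p = 0.34). The other 5 genes differed by at most 0.17 on the log2 scale. They were *Glul* (-0.17 ± 0.15), *Slc1a3* (0.15 ± 0.14), *Gja1* (-0.13 ± 0.12), *Slc6a11* (0.09 ± 0.12) and *Kcnj10* (-0.06 ± 0.13).

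Summed levels of several marker lists in the astrocyte sums also differed with genotype. The summed level of the 4 telencephalic markers in deep brain astrocytes was 246 to 485 CPM in controls and 200 to 314 CPM in mutants, and that of the 5 non-telencephalic markers 1025 to 1337 and 609 to 1453 CPM. Summed markers of oligodendrocyte precursor cells were 126 to 256 CPM in controls and 233 to 399 CPM in mutants, and those of Bergmann glia 903 to 1042 and 1135 to 1425 CPM, without overlap. Summed neuron markers (323 to 524 and 335 to 704 CPM) and oligodendrocyte markers (587 to 851 and 609 to 808 CPM) overlapped. Fitting each astrocyte cluster alone did not remove all of these differences, although the Bergmann glia markers overlapped in the telencephalic type (799 to 1112 CPM in controls and 899 to 1149 CPM in mutants). In the telencephalic type the summed precursor cell markers were 102 to 141 CPM in controls and 137 to 247 CPM in mutants, and its own markers 523 to 871 and 347 to 643 CPM. In the non-telencephalic cluster the precursor cell markers were 133 to 270 and 253 to 430 CPM, those of Bergmann glia 914 to 1025 and 1141 to 1494 CPM, and its own markers 1468 to 1770 and 840 to 1647 CPM. Telencephalic markers in that cluster were 202 to 233 CPM in controls and 139 to 193 CPM in mutants, without overlap. Non-telencephalic markers in the telencephalic type overlapped, at 194 to 399 and 128 to 353 CPM. Their part in the genotype differences was not tested.

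In the 2463 telencephalic-type nuclei *Gjb6* was lower and *Slc6a11* higher in mutants, 2 of 8 genes where 4.62% of the 9649 tested passed (2.61% higher and 2.01% lower). That was 446 genes, and 289 without mutant 2. *Gjb6* was at 168 to 251 CPM in mutants, with 3 of them below the lowest control, and at 186 to 399 CPM in controls. The difference was -0.65 ± 0.16 (adjusted p = 0.019). It no longer passed without control 1 (-0.55, adjusted p = 0.067), control 2 (-0.55, adjusted p = 0.056) or mutant 3 (-0.60, adjusted p = 0.060), and in the younger mice 4 to 6 the genotypes overlapped, at 168 to 238 CPM in mutants and 186 to 255 CPM in controls. *Slc6a11* was at 499 to 690 CPM in mutants, 5 of which lay above the highest control, and at 380 to 511 CPM in controls. Its difference of 0.37 ± 0.11 (adjusted p = 0.048) still passed when control 4, control 5 or mutant 6 was left out, but not when any other library was, with adjusted p up to 0.13, nor with a replicate block (adjusted p = 0.066), age-matched pairs as a block (adjusted p = 0.067) or no filter on low counts (adjusted p = 0.061).

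*Slc1a2* in the telencephalic type was at 8424 to 10618 CPM in mutants and 10820 to 11965 CPM in controls. These groups did not overlap, yet the difference of -0.22 ± 0.09 did not pass (adjusted p = 0.21). *Aqp4* was at 477 to 836 CPM in mutants and 292 to 498 CPM in controls, a difference of 0.40 ± 0.14 that did not pass (adjusted p = 0.14) except with no filter on low counts (adjusted p = 0.038). *Slc1a3*, at 2873 to 3962 and 2132 to 3311 CPM, differed by 0.26 ± 0.11 (adjusted p = 0.26), and *Kcnj10*, *Gja1* and *Glul* by -0.25 ± 0.13, -0.17 ± 0.13 and -0.08 ± 0.13. In non-telencephalic astrocytes, where 4.75% of the 11956 genes tested passed (2.84% higher and 1.92% lower), no member did. The count of 568 genes fell to 356 without mutant 2 and 369 without mutant 3, and was 1054 without mutant 6. *Slc1a2* was there at 3166 to 4330 CPM in mutants, 5 of them below the lowest control, and at 4040 to 4764 CPM in controls (-0.33 ± 0.10, adjusted p = 0.058). DESeq2 called it (adjusted p = 0.0077), and it passed without mutant 6 (-0.41, adjusted p = 0.0051). *Gjb6* (-0.36 ± 0.12, adjusted p = 0.10) passed without control 6, the only male (-0.45, adjusted p = 0.025), and with the replicate block (-0.35, adjusted p = 0.035). *Slc1a3* (0.28 ± 0.11, adjusted p = 0.16) did not pass in this cluster, and *Slc6a11* was at -0.09 ± 0.11. Whether the 2 clusters differed in their genotype effect was not tested.

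In cortical astrocytes none of the 8 genes passed either, with 2.1% of the 6723 genes tested passing (1.13% higher and 0.967% lower). That count of 141 genes was 93 without control 2 and 239 without mutant 6. *Aqp4* had the lowest p. It was at 451, 635 and 848 CPM in mutants and 377, 488 and 591 CPM in controls, 3 mutants lay above the highest control, and the difference was 0.40 ± 0.16 (adjusted p = 0.28). *Gja1* was at 640, 921 and 1107 CPM in mutants and 819, 1097 and 1321 CPM in controls (-0.29 ± 0.14, adjusted p = 0.42). *Slc1a2* was at 8538, 9484 and 12192 CPM in mutants and 10064, 11123 and 12336 CPM in controls (-0.15 ± 0.10, adjusted p = 0.63). The other 5 lay between -0.16 and 0.05. The telencephalic markers themselves summed to 401 to 671 CPM in cortical astrocytes of mutants and 932 to 1230 CPM in those of controls. Non-telencephalic markers were lower in mutants there too, at 93 to 225 CPM against 277 to 441 CPM, and neither pair of ranges overlapped. Their part in the genotype differences was not tested. With the deeper cortical libraries alone no member passed.

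**Figure D5:**
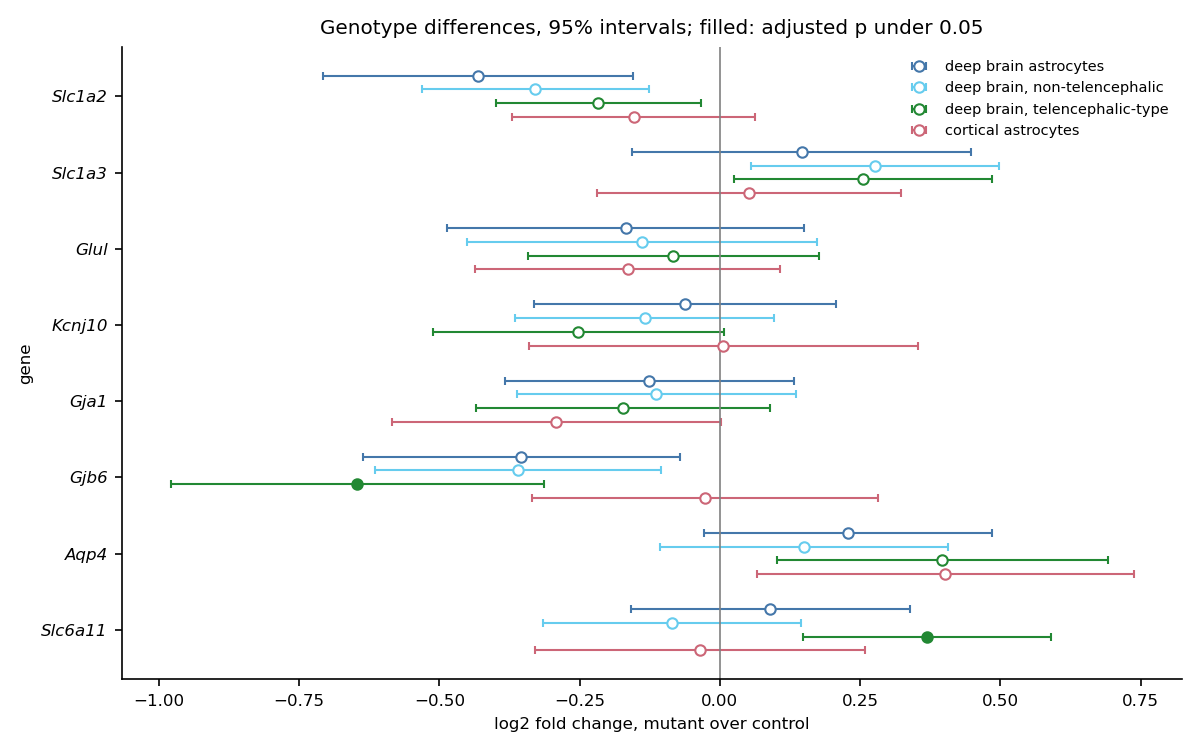
Fitted log2 difference between mutants and controls for each of the 8 genes in all deep brain astrocytes, in their telencephalic-type and non-telencephalic clusters and in cortical astrocytes. Bars are 95% intervals, filled points passed an adjusted p of 0.05, and values above 0 mean a higher level in mutants. Only *Gjb6* and *Slc6a11* in the telencephalic-type cluster are filled.

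Astrocytes made up 8.75 ± 1.77% of kept deep brain nuclei in mutants and 7.56 ± 0.92% in controls (SD, n = 6), and the difference did not pass (p = 0.165, two-sided exact permutation test). Mutant 6 had the lowest share of the mutants, 5.80%, and without it the difference was 1.78 percentage points (p = 0.0216, exact permutation test). In the cortex the shares were 1.67 ± 1.73% and 2.09 ± 1.33% (p = 0.632, exact permutation test). They followed the median UMIs per kept nucleus, being 0.528 to 1.53% in the 7 shallower libraries and 2.52 to 4.21% in the 5 deeper ones. Kept nuclei here include the 38968 of the cluster led by mitochondrial transcripts, whose part in these shares was not tested. The astrocytes themselves had median depths of 5853.5 to 8716 UMIs in the shallower libraries and 3017 to 5684 UMIs in the deeper ones.

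Summed over all kept deep brain nuclei, *Aqp4* was the member that passed between genotypes, higher in mutants, where 1.54% of the 21040 genes tested passed (0.913% higher and 0.627% lower). The count of 324 genes ranged from 92 to 450 when 1 library was left out, and controls 1, 4 and 5 and mutants 1, 2, 3 and 5 each lowered it by more than 1.5 times. *Aqp4* was at 31.9, 35.3 and 45.0 CPM in mutants and 22.9, 26.7 and 32.5 CPM in controls. The ranges overlapped narrowly, with a difference of 0.45 ± 0.09 (adjusted p = 0.035). In such a sum more cells of a type and more RNA per cell cannot be told apart. The call was lost without any of controls 1, 2, 4 and 6 or mutants 2, 3 and 5, with adjusted p up to 0.082, and with age-matched pairs as a block (adjusted p = 0.055). *Slc6a11* (0.30 ± 0.10, adjusted p = 0.17), *Slc1a3* (0.30 ± 0.15, adjusted p = 0.39) and *Slc1a2* (-0.39 ± 0.17, adjusted p = 0.31) did not pass. In the cortex, where 0.275% of 18171 genes passed (0.237% higher and 0.0385% lower), no member did, and *Aqp4* was at 0.51 ± 0.22 (adjusted p = 0.52). All 6 same-numbered pairs of these cortical sums correlated above 0.1, and with the replicate block 269 genes were higher and 149 lower, against 43 and 7 without it, again with no member among them. Without the block the count of 50 genes ranged from 11 to 110 when 1 library was left out.

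No member passed between genotypes in the other classes tested by edgeR without a block. In deep brain oligodendrocytes, where 1.61% of 13519 genes passed (1.18% higher and 0.429% lower, 101 to 502 genes in all when 1 library was left out), *Glul* differed by 0.00 ± 0.11 (95% interval -0.23 to 0.23) and *Kcnj10* by -0.02 ± 0.08. *Slc1a3* came closest there, at 88.1, 99.1 and 151 CPM in mutants and 126, 143 and 151 CPM in controls (-0.36 ± 0.11, adjusted p = 0.13). It came closest in cortical oligodendrocytes too, at -0.47 ± 0.14 (adjusted p = 0.12), where 0.943% of 10069 genes passed (0.705% higher and 0.238% lower, 45 to 152 genes when 1 library was left out), with 6 of the 8 genes kept by the filter. Without mutant 6 *Slc1a3* passed in both, at -0.49 in the deep brain (adjusted p = 0.0013) and -0.64 in the cortex (adjusted p = 0.0014), in fits that called 502 and 152 genes, the most of any left-out library. In the cortex it also passed with the replicate block (-0.50, adjusted p = 0.011) and with age-matched pairs as a block (-0.48, adjusted p = 0.039). Precursor cells of the deep brain gave differences of 0.05 ± 0.07 for *Slc1a2* and -0.18 ± 0.10 for *Kcnj10*, with 0.0454% of 11007 genes passing (0.0182% higher and 0.0273% lower, 5 genes, or 14 without mutant 6). In deep brain neurons (0.386% of 19967 genes, 0.11% higher and 0.275% lower) the lowest p was that of *Aqp4*, at 0.53 ± 0.12 (adjusted p = 0.083), whose level there is the low one given above, and *Slc1a2* was at -0.74 ± 0.19 (adjusted p = 0.10), which passed without control 3 (-0.84, adjusted p = 0.043) or mutant 4 (-0.87, adjusted p = 0.044). With DESeq2 *Aqp4* (adjusted p = 0.0031) and *Slc1a2* (adjusted p = 0.0078) both passed in neurons, as they did with the replicate block (adjusted p = 0.044 and 0.038), and *Aqp4* passed with age-matched pairs (adjusted p = 0.0499). DESeq2 called 211 genes higher and 325 lower in neurons, the replicate block 46 and 155 and the age-matched block 25 and 73, against 22 and 55 by edgeR without a block. That total of 77 ranged from 6 to 218 when 1 library was left out, with 218 without control 3 and 168 without mutant 4. The neuron clusters differed in *Slc1a2*, as given above. In the neuron sum, a change in the mix of neurons and a change in RNA per neuron cannot be told apart.

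Between regions of control mice 6 of the 8 genes passed in oligodendrocytes, 4 higher and 2 lower in the deep brain, where 10.4% of 13636 genes passed (4.36% higher and 6.07% lower). The count of 1423 genes fell to 931 without control 3. *Glul*, which oligodendrocytes hold at high level, was at 538, 660 and 813 CPM in the deep brain and 386, 512 and 648 CPM in the cortex of controls. The difference of 0.36 ± 0.07 (adjusted p = 0.0010) had the sign opposite to that in astrocytes. *Kcnj10* differed by 0.01 ± 0.07 (95% interval -0.15 to 0.16), at 147 to 191 CPM in the deep brain and 130.5 to 191 CPM in the cortex. *Slc1a2* (-0.81 ± 0.18), *Slc1a3* (-0.26 ± 0.07), *Slc6a11* (1.46 ± 0.28), *Gja1* (0.58 ± 0.18) and *Gjb6* (0.84 ± 0.27) passed as well, the 2 glutamate transporters, *Slc6a11* and *Gjb6* with the sign found in astrocytes. *Slc6a11*, at 15.9 CPM in the deep brain and 5.3 CPM in the cortex over both genotypes, lay below its level in neurons of the same region (18.3 and 11.7 CPM). With the deeper cortical libraries alone *Slc1a2* (-0.42, adjusted p = 0.39), *Slc1a3* (-0.22, adjusted p = 0.19) and *Gjb6* (1.01, adjusted p = 0.18) did not pass. *Gjb6* also missed the threshold with DESeq2 (adjusted p = 0.065), with RLE size factors (0.052), without any of 5 controls (up to 0.15) and without mutant 2, 3 or 4 (up to 0.062), all mice sharing the estimate of spread. *Gja1* missed it with DESeq2 (0.088), and without control 2, 3 or 5 (up to 0.31), and *Slc1a3* without control 3 (0.071). With no filter on low counts *Slc1a3* missed it (0.10) and *Aqp4* passed (0.69, adjusted p = 0.027), and without the mouse block only *Slc1a2* and *Slc6a11* passed. The part of free astrocyte RNA in these values was not tested.

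Other genes of the same functions were read from 4 lists. Between regions in control astrocytes, where 6.09% of all genes tested were higher and 6.89% lower, 5 of 17 tested genes of glutamate and GABA handling were higher in the deep brain and 4 lower (median log2 difference -0.01, against 0.02 over all genes). *Slc6a9*, a glycine transporter, was higher by 2.06 ± 0.16 and *Abat*, which breaks down GABA, by 0.82 ± 0.11. *Grm3*, a metabotropic glutamate receptor of astrocytes, was lower (-1.10 ± 0.10), and *Pcx*, pyruvate carboxylase, was higher (0.61 ± 0.11). Of 17 potassium and ion handling genes 1 was higher and 5 were lower (median -0.18). *Slc4a4*, a sodium bicarbonate cotransporter, was higher (0.93 ± 0.08), while the potassium channel *Kcnk2* (-1.13 ± 0.16) and the sodium pump subunit *Atp1b1* (-0.70 ± 0.11) were lower.

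Of the 4 tested genes of gap junctions, *Gjc3* (2.68 ± 0.27) and *Gjb1* (1.21 ± 0.40) were higher in the deep brain and none lower (median 0.67). Both are connexins of oligodendrocytes. Summed oligodendrocyte markers in these astrocyte sums, given above, averaged 740 CPM in the deep brain and 494 CPM in the cortex of controls with overlapping ranges, and their part in this difference was not tested. Of 14 genes of water handling and endfoot anchoring 2 were higher and 2 lower (median -0.10). *Dmd*, which encodes dystrophin, was higher (0.38 ± 0.08) and so was its relative *Utrn* (0.28 ± 0.09), while *Sgcb* (-0.61 ± 0.16) and *Dtna* (-0.25 ± 0.08), other parts of the dystrophin complex, were lower. In mutants *Slc6a9* (2.58 ± 0.17) and *Grm3* (-1.35 ± 0.10) were again the largest of the first list. Where 6.5% of all genes tested were higher and 8.29% lower, the counts were 5 higher and 4 lower for glutamate and GABA, 2 and 7 for potassium, 2 and 1 for gap junctions and 1 and 2 for water.

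Between genotypes 5.16% of all genes tested passed in deep brain astrocytes and 2.1% in cortical ones. In the deep brain *Slc38a3*, a glutamine transporter, was higher in mutants (0.59 ± 0.08, adjusted p = 0.00066) and *Glud1*, glutamate dehydrogenase, lower (-0.37 ± 0.10, adjusted p = 0.037), 2 of 17 genes of the first list. No gene of 17 passed for potassium, where *Slc4a4* had the lowest p (0.31 ± 0.09, adjusted p = 0.070). The connexin *Gjb2* was higher (0.68 ± 0.17, adjusted p = 0.024), 1 of 6 genes, and the syntrophin *Sntb1* was higher (0.54 ± 0.12, adjusted p = 0.013), 1 of 14. In the cortex *Slc38a3* was again higher (0.67 ± 0.12, adjusted p = 0.0035), *Slc7a11*, a cystine and glutamate exchanger, lower (-0.62 ± 0.13, adjusted p = 0.011) and *Slc4a4* higher (0.54 ± 0.10, adjusted p = 0.0048), with none of 12 water genes passing.

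Across the 24 astrocyte sums the genes most like each member were named as a description. The sums share regions and libraries, so no p is given. *Gpm6b* followed *Slc1a2* with r = 0.97 of log2(CPM + 1) over all 24 sums and r = 0.89 and 0.82 within the 12 sums of the deep brain and of the cortex. *Lrig1* followed *Slc6a11* with r = 0.97, and with 0.78 and 0.48 within the regions. For *Slc1a3* the closest was *Hapln1* (0.96, and 0.94 and 0.63 within regions), for *Kcnj10* *Cbx5* (0.90, 0.92 and 0.72), for *Glul* *Dio2* (0.86, 0.85 and 0.67) and for *Gjb6* *Slc10a7* (0.85, 0.72 and 0.85). *Gja1* and *Aqp4*, which differed little between regions, had lower closest values, 0.78 with *Omg* and 0.75 with *Acsl6*. The second closest genes were *Lama3*, *Erbb4*, *Id4*, *Slc6a9*, 9330159F19Rik, *Adamts20*, *Cyp20a1* and *Zfp995*, in the same order of members, with r from 0.70 to 0.97 over all sums. Within 1 region some of these fell, as for *Zfp995* with *Aqp4* (0.19 in the deep brain and 0.89 in the cortex), *Erbb4* with *Slc6a11* (0.42 and 0.69) and *Lama3* with *Slc1a2* (0.90 and 0.46).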

How the data were processed

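The authors made single-nucleus libraries with 10x 5′ chemistry and, per the labels, counted UMIs per gene and nucleus, introns included, with Cell Ranger 5.0.1 (bcl2fastq 2.20.0.422) on mm10. The deposited values were raw counts. Total UMIs per library ran from 23625232 to 96459036.

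Nuclei with more than 500 and under 7000 genes and under 20% mitochondrial UMIs were kept. Counts were scaled to 1000 UMIs per nucleus and log transformed, 2000 variable genes without the 8 members gave 20 principal components, and nuclei were clustered on 20 nearest neighbours in each region (scanpy 1.11.5, Seurat 5.3.0) at a resolution of 0.01, with mixed clusters divided at 0.1. Clusters were named from marker lists, and 3627 deep brain and 39733 cortical nuclei stayed unnamed. The naming rules were revised after clusters had been seen. Doublets were not removed in the main analysis. Scrublet was used as an alternative in the 12 deep brain and 4 of the cortical libraries, where its share of doublets was between 0.5% and 20%.

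Counts were summed per library over the nuclei of a class, for sums of at least 10 nuclei, and tested with edgeR 4.0.16 (quasi-likelihood, filterByExpr, TMM) in R 4.3.3, with Benjamini-Hochberg adjustment over all genes and a threshold of 0.05. Region fits held the mouse as a block, since both regions came from the same mouse. Genotype fits had no block. Same-numbered mutants and controls are different mice, and not all of the 6 pairs correlated above 0.1 except in cortical sums over all nuclei (lowest 0.25). In genotype fits p-values measure the spread between separate mice. In region fits with the mouse as a block they measure how the difference between regions varied from mouse to mouse. DESeq2 1.42.0, other scaling, filters, clusters and left-out mice were alternatives. On simulated counts with known changes, 68% of 1.5-fold and 95% of 2-fold changes were recovered for the deep brain genotype comparison (12671 genes), 26% and 95% for the cortical one (6723 genes), and 52% and 88% for the region comparison in controls (12274 genes). The changed genes were drawn only from genes above a limit on the mean count, so these shares do not cover genes with low counts. The simulated counts followed the spread fitted to the data. Intervals are at the 95% level.

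The 8 members and the gene lists were chosen with earlier results of these data known. Named genes were the members, for each list and comparison up to 4 genes with the largest absolute log2 difference among those past the threshold, or the 2 with the smallest unadjusted p where none passed, and the 2 genes most correlated with each member over the 24 astrocyte sums. Some genes that this rule names are not reported here. Neuron clusters were chosen after their values were seen.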

Additional observations from a re-analysis of the deposited data

Results flagged for a closer look

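In the 38 groups of 6 libraries examined, a single library stood apart from its group in 2, by Dixon's gap test at the 95% level, where chance alone gives about 1 in 20 groups. *Gja1* in deep brain astrocytes was at 731 CPM in control replicate 6, the only male, against 911 to 998 CPM in the other 5 controls. *Gjb6* in deep brain astrocytes was at 405 CPM in mutant replicate 1, against 282 to 314 CPM in the other 5 mutants.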

How the results depend on the processing

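The region differences of *Slc1a2*, *Slc1a3*, *Kcnj10* and *Slc6a11* kept their direction and passed in both genotypes under every alternative run. Those of *Glul* and *Gjb6* did not, as given with their values above. The cause of the changes below was not tested. No difference that turned in sign had passed. Without the replicate block *Glul* also missed the threshold in controls (adjusted p = 0.071), and with all nuclei clustered at a resolution of 0.1 in mutants (adjusted p = 0.058). Leaving out the block also lost the *Slc1a3* call in telencephalic-type against cortical astrocytes (adjusted p = 0.092), and no other call of a region difference in astrocytes. In the cortex 25 to 453 astrocytes per library were summed, and in the deep brain 578 to 1174.

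With DESeq2, the count of members called was 1 in deep brain astrocytes between genotypes (0 before), 1 in non-telencephalic astrocytes between genotypes (0 before), 2 in neurons (0 before). The log2 difference turned in sign there for *Kcnj10* at -0.00020 (oligodendrocytes between regions). With RLE size factors, the log2 difference turned in sign for *Kcnj10* at -0.0011 (oligodendrocytes between regions). With Scrublet doublets removed, the log2 difference turned in sign for *Kcnj10* at -0.0013 (cortical astrocytes between genotypes). With age-matched pairs as a replicate block, the count of members called was 1 in the telencephalic type between genotypes (2 before), 1 in non-telencephalic astrocytes between genotypes (0 before), 1 in cortical oligodendrocytes between genotypes (0 before), 1 in neurons (0 before), 0 in all deep brain nuclei (1 before). The log2 difference turned in sign there for *Glul* at 0.0095 and *Gja1* at 0.012 (deep brain oligodendrocytes between genotypes), *Glul* at -0.0044 (neurons). With the replicate block, the count of members called was 1 in the telencephalic type between genotypes (2 before), 1 in non-telencephalic astrocytes between genotypes (0 before), 1 in cortical oligodendrocytes between genotypes (0 before), 2 in neurons (0 before). The log2 difference turned in sign there for *Gjb6* at 0.0023 (cortical astrocytes between genotypes), *Glul* at 0.0099 and *Gja1* at 0.0082 (deep brain oligodendrocytes between genotypes), *Glul* at -0.0045 (neurons). With no replicate block, the count of members called was 0 in telencephalic-type against cortical astrocytes (1 before), 2 in oligodendrocytes between regions (6 before). The log2 difference turned in sign there for *Kcnj10* at -0.0037 (oligodendrocytes between regions). With nuclei holding neuron or oligodendrocyte UMIs removed, the log2 difference turned in sign for *Slc1a3* at -0.27, *Kcnj10* at -0.28, *Slc6a11* at 0.14 (cortical astrocytes between genotypes), *Aqp4* at 0.17 (astrocytes between regions in controls), *Gja1* at 0.30 and *Aqp4* at 0.21 (astrocytes between regions in mutants), *Kcnj10* at 0.15, *Gjb6* at 0.067, *Aqp4* at 0.038 (the interaction). With all nuclei clustered at a resolution of 0.1, the log2 difference turned in sign for *Slc6a11* at -0.00051 (deep brain astrocytes between genotypes), *Slc1a2* at 0.054, *Glul* at 0.090, *Gjb6* at 0.17, *Slc6a11* at 0.084 (cortical astrocytes between genotypes), *Gja1* at 0.037 and *Aqp4* at 0.33 (astrocytes between regions in controls), *Slc1a3* at -0.18, *Gja1* at -0.14, *Slc6a11* at -0.10 (the interaction). With the deeper cortical libraries only, an alternative chosen after seeing the data, the count of members called was 0 in telencephalic-type against cortical astrocytes (1 before), 3 in oligodendrocytes between regions (6 before). The log2 difference turned in sign there for *Slc1a3* at -0.15, *Kcnj10* at -0.098, *Slc6a11* at 0.063 (cortical astrocytes between genotypes), *Aqp4* at 0.018 (astrocytes between regions in controls), *Gja1* at 0.27 and *Aqp4* at 0.13 (astrocytes between regions in mutants), *Kcnj10* at 0.031 and *Aqp4* at 0.11 (the interaction), *Slc6a11* at -0.085 (telencephalic-type against cortical astrocytes), *Slc1a2* at 0.089 (cortical oligodendrocytes between genotypes), *Slc1a2* at 0.0057, *Slc1a3* at -0.18, *Glul* at -0.25, *Kcnj10* at -0.013, *Slc6a11* at 0.020 (all cortical nuclei). The difference in the share of cortical astrocytes was then 0.71 percentage points (-0.42 before). With the members kept among the variable genes, the log2 difference turned in sign for *Slc1a2* at 0.024, *Glul* at 0.049, *Gjb6* at 0.14, *Slc6a11* at 0.099 (cortical astrocytes between genotypes), *Gja1* at 0.042 and *Aqp4* at 0.26 (astrocytes between regions in controls), *Gja1* at 0.017 (astrocytes between regions in mutants), *Slc1a3* at -0.053, *Gja1* at -0.026, *Slc6a11* at -0.012 (the interaction). With no filter on low counts, the count of members called was 1 in deep brain astrocytes between genotypes (0 before), 2 in telencephalic-type against cortical astrocytes (1 before). The log2 difference turned in sign there for *Aqp4* at 0.056 (astrocytes between regions in controls), *Slc1a2* at 0.019 (telencephalic-type against cortical astrocytes). Each mouse was left out in turn, which removed the libraries of both its regions from the region fits. The count of members called ranged from 0 to 1 in deep brain astrocytes between genotypes, 1 to 3 in telencephalic-type against cortical astrocytes, 0 to 2 in the telencephalic type between genotypes, 0 to 1 in non-telencephalic astrocytes between genotypes, 0 to 1 in deep brain oligodendrocytes between genotypes, 0 to 1 in cortical oligodendrocytes between genotypes, 0 to 1 in neurons, 0 to 1 in all deep brain nuclei. The log2 differences that turned in sign in at least 1 such fit ranged as follows, *Slc1a3* -0.016 to 0.13 (cortical astrocytes between genotypes), *Kcnj10* -0.081 to 0.085 (cortical astrocytes between genotypes), *Gjb6* -0.11 to 0.051 (cortical astrocytes between genotypes), *Slc6a11* -0.094 to 0.036 (cortical astrocytes between genotypes), *Aqp4* -0.069 to 0.090 (astrocytes between regions in controls), *Gja1* -0.24 to 0.023 (astrocytes between regions in mutants), *Slc1a3* -0.018 to 0.17 (the interaction), *Glul* -0.099 to 0.077 (the interaction), *Gja1* -0.0065 to 0.26 (the interaction), *Slc1a2* -0.036 to 0.0076 (telencephalic-type against cortical astrocytes), *Glul* -0.064 to 0.061 (deep brain oligodendrocytes between genotypes), *Kcnj10* -0.056 to 0.028 (deep brain oligodendrocytes between genotypes), *Gja1* -0.10 to 0.11 (deep brain oligodendrocytes between genotypes), *Aqp4* -0.026 to 0.36 (cortical oligodendrocytes between genotypes), *Kcnj10* -0.028 to 0.064 (oligodendrocytes between regions), *Glul* -0.064 to 0.10 (precursor cells), *Gja1* -0.15 to 0.096 (precursor cells), *Aqp4* -0.0020 to 0.29 (precursor cells), *Glul* -0.050 to 0.096 (neurons), *Glul* -0.045 to 0.095 (all deep brain nuclei), *Slc1a2* -0.066 to 0.040 (all cortical nuclei), *Slc6a11* -0.11 to 0.044 (all cortical nuclei). The share of deep brain astrocytes differed by 0.88 to 1.78 percentage points. The shares that follow pool the nuclei of all libraries of a region. Before thinning, the share of nuclei with a UMI was 99.7% for *Slc1a2*, 94.6% for *Slc1a3*, 86.3% for *Glul*, 51.0% for *Kcnj10*, 88.9% for *Gja1*, 63.1% for *Gjb6*, 70.2% for *Aqp4*, 91.0% for *Slc6a11* in deep brain astrocytes and 99.7% for *Slc1a2*, 99.5% for *Slc1a3*, 92.4% for *Glul*, 46.2% for *Kcnj10*, 91.9% for *Gja1*, 58.6% for *Gjb6*, 74.3% for *Aqp4*, 76.8% for *Slc6a11* in cortical ones.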
